A study of Mus musculus with 3 samples.

Results

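The genes described here are 9 that mark steroid-producing cells and mesothelium, which lie next to the embryonic kidney: Cyp11a1, Star, Nr5a1, Cyp17a1, Cyp21a1, Hsd3b1 and Fdx1 for steroid synthesis, and Msln and Upk3b for mesothelium. A feature was taken where the platform annotation gave exactly 1 gene symbol equal to one of these names and all 3 arrays held a value. That left 8 of the 9 genes among 19015 rows, each with 1 feature, so no averaging entered their values. No feature carried Upk3b as its only symbol, and this gene was not analysed here. The study compared kidneys of CD1 mouse embryos at 2 ages, 13.5 dpc (days post coitum) fetal kidney and 11.5 dpc metanephroi, the rudiments of the permanent kidney. The material was microdissected primary tissue from pools of both sexes, and amplified RNA of both ages was hybridised to each of 3 arrays of mouse oligonucleotides. Channel 2 carried the 13.5 dpc kidneys and channel 1 the 11.5 dpc metanephroi. The labels give red/green as the dyes of arrays 1 and 2, and green/red as those of array 3.

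Steroid hormones are made from cholesterol by a chain of enzymes in the adrenal cortex and the gonads. StAR brings cholesterol to the inner mitochondrial membrane, CYP11A1 cuts its side chain to give pregnenolone, and further enzymes turn pregnenolone into progesterone, androgens and corticosteroids. The adrenal cortex and the gonad arise from a shared primordium beside the early kidney, and the nuclear receptor NR5A1, also called SF-1, is needed for both to form. Mesothelium is the flat epithelium that lines the body cavity and covers its organs, and mesothelin is among its surface proteins.

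The log2 ratios are likely 11.5 over 13.5 dpc, so a negative value is read as higher at 13.5 dpc. Should the ratio run the other way on every array, all directions given here would be opposite. The orientation of array 3, with its dyes swapped, is also likely and not settled. Turning that array alone changes the means and counts, as given below. An array of ratios gives no level of expression, so it could not be asked whether any of these genes was expressed above background, and the naming of the genes as markers of neighbouring tissue could not be checked against their levels. Nothing in the labels says whether adrenal, gonad or mesothelium was taken with the kidneys, and the share of such tissue in the pools was not tested. In pooled tissue, fewer cells of a type and less RNA per cell cannot be told apart.

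Msln, Cyp11a1, Nr5a1 and Hsd3b1 had the lowest mean ratios, between -1.02 and -0.64 on the log2 scale, and so lay higher at 13.5 than at 11.5 dpc. Cyp11a1 and Msln did so on each of the 3 arrays, while the mean of Hsd3b1 came mainly from array 2 and that of Nr5a1 from arrays 1 and 3. Star was also negative on every array, with small values, and Cyp17a1, Cyp21a1 and Fdx1 had means within 0.13 of 0. No gene of the 8 passed limma's threshold, an adjusted p under 0.05 over all 19015 rows (background 0.0%, 0 rows), and their adjusted p lay between 0.456 and 0.944. At an unadjusted limma p under 0.05 there were 2 of the 8, Cyp11a1 and Msln, both higher at 13.5 dpc, where 5.07% of all rows were called in that direction; 0 of the 8 were called lower at 13.5 dpc, as 4.17% of all rows were.

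**Figure D1:**
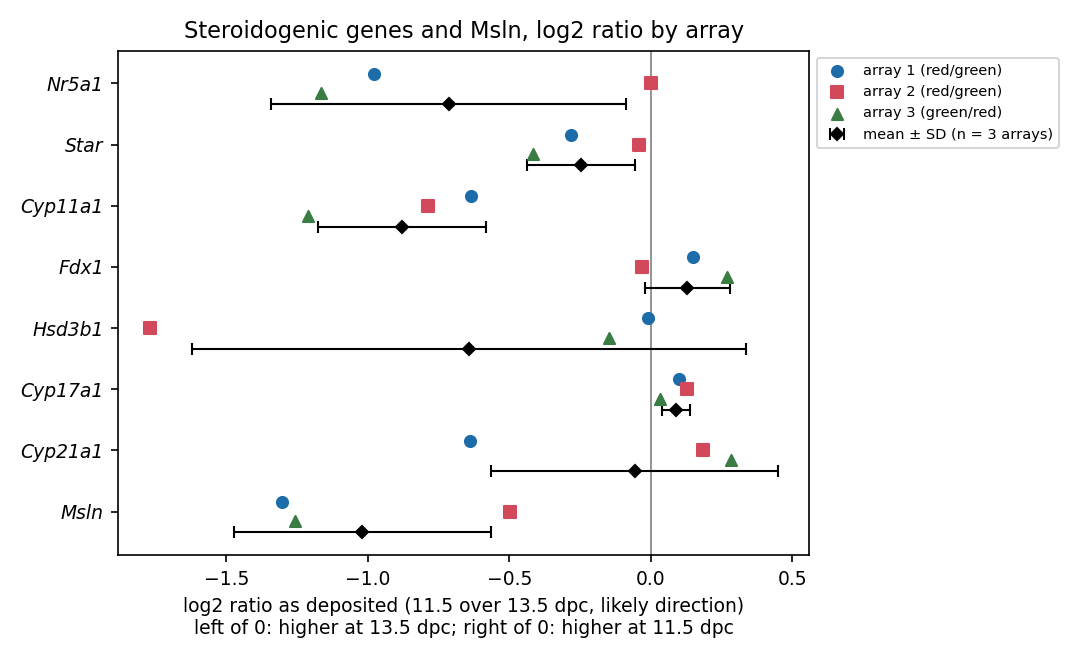
Log2 ratio (11.5 over 13.5 dpc, likely direction; x axis) of the 8 measured genes on each array (coloured points), with the mean ± SD over 3 arrays as black diamonds and bars. All points of Cyp11a1, Star, Hsd3b1 and Msln lie left of 0, toward 13.5 dpc, and the Hsd3b1 point of array 2 at -1.77 lies apart from its other points.

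Nr5a1 encodes the nuclear receptor that drives transcription of most steroidogenic enzyme genes. Its log2 ratios were -0.98 on array 1, 3e-07 on array 2 and -1.16 on array 3. The value of array 2 is a ratio of 1.00, equal signal at both ages, whereas arrays 1 and 3 gave 1.97-fold and 2.24-fold more at 13.5 dpc. The mean was -0.71 ± 0.63 (SD, n = 3 arrays), with a limma interval (95%, not adjusted) from -1.52 to 0.091 and an adjusted p of 0.553. Without array 2 the mean was -1.07 (limma adjusted p = 0.776), so the size of the Nr5a1 ratio depends on whether that array is counted.

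Star had log2 ratios of -0.28, -0.041 and -0.42 on arrays 1, 2 and 3. The 3 values share a sign but lie close to 0, and their mean of -0.25 ± 0.19 (SD, n = 3 arrays) corresponds to 1.19-fold more at 13.5 dpc (limma adjusted p = 0.650).

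Cyp11a1, whose product catalyses the first and rate-limiting enzymatic step of the pathway, had log2 ratios of -0.64, -0.79 and -1.21 on arrays 1, 2 and 3. It was therefore 1.56-, 1.73- and 2.31-fold higher at 13.5 dpc, and no array stood apart in direction. The mean was -0.88 ± 0.30 (SD, n = 3 arrays), 1.84-fold more at 13.5 dpc, with a limma interval from -1.40 to -0.36, an unadjusted p of 0.00906 and an adjusted p of 0.456. Of all rows, 377 had a smaller limma p.

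Fdx1 encodes ferredoxin, which hands electrons to CYP11A1 and to other mitochondrial P450 enzymes, and it is expressed in many tissues. Its log2 ratios were 0.15, -0.031 and 0.27, on either side of 0, with a mean of 0.13 ± 0.15 (SD, n = 3 arrays; limma adjusted p = 0.783). Cyp11a1 minus its partner Fdx1 gave a difference of -0.79, -0.76 and -1.48 log2 units on arrays 1, 2 and 3. The pair thus had unequal ratios within every array; this difference was chosen after the values were seen and was not tested.

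The start regions of Cyp11a1 and Fdx1, partners of 1 reaction, are shown as a description. They were chosen after the ratios were seen, and a link between sequence and ratio was not tested. RefSeq lists 2 start sites for Cyp11a1 and 1 for Fdx1 in GRCm38.p6, and each window runs from 250 bases before the start to 50 after it. Of the 9 genes, 4 had a window in that table, the others being Hsd3b1 and Upk3b. Capitals mark AGGTCA, the half-site that SF-1 and other nuclear receptors bind. All are on chromosome 9 and are written in the direction of transcription.
Cyp11a1, first start, chr9:57997774-57998073, plus strand: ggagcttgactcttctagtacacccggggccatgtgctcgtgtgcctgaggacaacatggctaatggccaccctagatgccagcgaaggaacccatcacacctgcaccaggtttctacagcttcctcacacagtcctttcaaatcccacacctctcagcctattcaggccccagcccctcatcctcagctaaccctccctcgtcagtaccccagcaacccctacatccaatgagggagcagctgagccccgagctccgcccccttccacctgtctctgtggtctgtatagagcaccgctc
Cyp11a1, second start, chr9:58014702-58015001, plus strand: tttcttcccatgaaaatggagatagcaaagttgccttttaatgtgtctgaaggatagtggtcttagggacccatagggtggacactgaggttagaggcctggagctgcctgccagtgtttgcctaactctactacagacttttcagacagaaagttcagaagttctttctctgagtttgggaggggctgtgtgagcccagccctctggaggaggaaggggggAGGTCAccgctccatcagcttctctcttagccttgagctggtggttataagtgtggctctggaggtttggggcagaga
Fdx1, chr9:51963553-51963852, minus strand: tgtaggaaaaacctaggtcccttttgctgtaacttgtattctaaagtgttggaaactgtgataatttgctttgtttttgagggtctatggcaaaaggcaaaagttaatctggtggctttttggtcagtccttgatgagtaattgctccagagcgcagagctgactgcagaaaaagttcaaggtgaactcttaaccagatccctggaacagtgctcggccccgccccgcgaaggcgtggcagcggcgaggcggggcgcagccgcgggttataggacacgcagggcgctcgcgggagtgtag
The windows were searched on both strands for AAGGTCA and AAGGCCA, longer forms of the SF-1 site, and for TATAAA, and no window of these 4 genes held any of them. Among all 32851 windows of the table, 4.72% held AAGGTCA, 6.20% held AAGGCCA and 13.6% held TATAAA. The shorter AGGTCA, which is contained in AAGGTCA, was added after that search. It occurred in the second Cyp11a1 window, starting 28 bases before the start site, and in the Upk3b window, and 16.3% of all windows held it. These are matches of letters in short windows and were not compared with any measure of binding.

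Hsd3b1 encodes the dehydrogenase that turns pregnenolone into progesterone. Its log2 ratios were -0.012, -1.77 and -0.15 on arrays 1, 2 and 3. Array 2 alone showed a large ratio, 3.41-fold more at 13.5 dpc, and arrays 1 and 3 lay near equality at 1.01- and 1.11-fold. The mean was -0.64 ± 0.98 (SD, n = 3 arrays; limma adjusted p = 0.649), and it became -0.080 without array 2. Hsd3b1 has close paralogs whose transcripts an oligonucleotide may share, and the measured ones did not have the low ratio of array 2. On that array Hsd3b3, the mean of 2 features, had 0.21 and Hsd3b2 had 0.36, so that Hsd3b1 differed from them by -1.98 and -2.14 log2 units.

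Cyp17a1 encodes the hydroxylase and lyase that leads to androgens. Its log2 ratios of 0.10, 0.13 and 0.034 were positive on every array and close to equality, with a mean of 0.088 ± 0.049 (SD, n = 3 arrays; limma adjusted p = 0.842). It was the least variable of the 8 genes, and 1.87% of all rows had a smaller SD over the arrays. The limma interval of its mean, from -0.31 to 0.49, still allows differences of that size either way. Cyp11a1 minus Cyp17a1 gave -0.74, -0.92 and -1.25 log2 units on arrays 1, 2 and 3. Cyp11a1 minus Star gave smaller differences, -0.36, -0.75 and -0.79. Nr5a1 minus Cyp11a1 had no single sign, with -0.34, 0.79 and 0.046. These differences were chosen after the values were seen and were not tested.

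Cyp21a1 encodes the steroid hydroxylase of corticosteroid synthesis, an enzyme of the adrenal cortex. It had -0.64 on array 1, against 0.19 and 0.28 on arrays 2 and 3, so the arrays went opposite ways. The mean of -0.057 ± 0.51 (SD, n = 3 arrays; limma adjusted p = 0.944) changed sign, to 0.23, without array 1.

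Msln encodes mesothelin, the surface glycoprotein of mesothelial cells. It had log2 ratios of -1.30, -0.50 and -1.26 on arrays 1, 2 and 3, which is 2.47-, 1.41- and 2.39-fold more at 13.5 dpc. All 3 arrays gave the same direction, with array 2 the smallest in size. The mean was -1.02 ± 0.45 (SD, n = 3 arrays), 2.03-fold more at 13.5 dpc, with a limma interval from -1.66 to -0.38, an unadjusted p of 0.0116 and an adjusted p of 0.472. Msln was the only mesothelial gene of the 2 that could be measured.

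The arrays differed in spread, with SDs over all rows of 0.56, 0.75 and 0.93 on arrays 1, 2 and 3, so each gene was also placed by its rank within its own array. Cyp11a1 stood low on each, with 10.7%, 8.45% and 4.18% of rows below it on arrays 1, 2 and 3. Msln had 1.65%, 13.98% and 3.73% of rows below it. Each of the other 6 genes ranked above 40% on at least 1 array. Nr5a1 had 4.06% and 4.63% of rows below it on arrays 1 and 3 and 43.97% on array 2, and Hsd3b1 had 3.11% on array 2 and 48.2% and 44.7% on arrays 1 and 3. Star ranked between 24.8% and 40.3%, and Cyp17a1 between 56.2% and 61.0%. Cyp21a1 spanned 10.6% to 78.7% and Fdx1 41.1% to 77.9%.

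**Figure D2:**
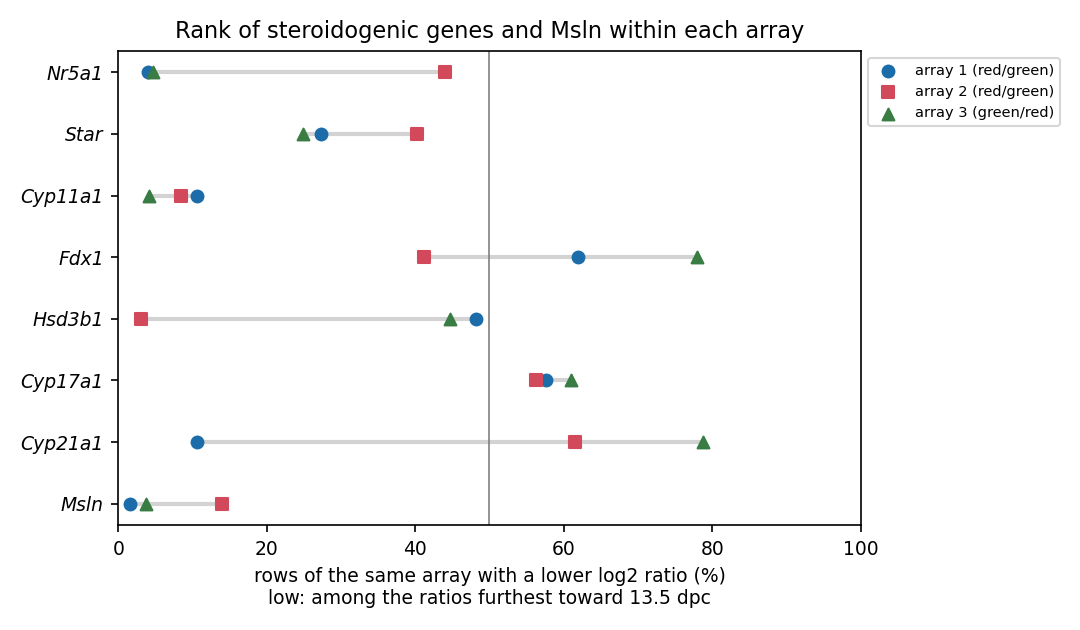
Share of the 19015 rows of the same array that had a lower log2 ratio (x axis, %), for each of the 8 genes on each array (coloured points; grey lines join the lowest and highest). Cyp11a1 and Msln stay at 13.98% or below on all 3 arrays, while Nr5a1, Hsd3b1 and Cyp21a1 spread widely.

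Of the 8 genes, 5 kept 1 sign on every array, as did 35.2% of all rows: 4 were negative on every array (Cyp11a1, Star, Hsd3b1 and Msln), where 18.5% of all rows were, and 1 was positive on every array (Cyp17a1), where 16.7% of all rows were. The other 3 (Nr5a1, Cyp21a1 and Fdx1) did not keep 1 sign. None (0 of 8) reached 2-fold on every array, and 0.684% of all rows did. The median of the 8 means was -0.45, and that of all rows was -0.0084. Without Msln, the 7 steroidogenic genes had a median of -0.25, nearer to 0. The median SD over the arrays was 0.34 for all rows, so a mean such as that of Star is smaller than a typical spread between arrays.

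The size of the means depends on how array 3 is read, and the orientation of that array is not settled. Pearson's correlation of array 3 across rows was 0.12 with array 1 and -0.12 with array 2 (Spearman's 0.13 and 0.0010), and that of arrays 1 and 2 was 0.27; rows are not independent replicates. With the sign of array 3 turned, Cyp11a1 had a mean of -0.072 and Msln one of -0.18. Turning an array takes the shared sign from every gene that had it, so the 5 such genes had to lose theirs. Nr5a1, Cyp21a1 and Fdx1 did not gain one, which left 0 of the 8. Over all rows, 5542 had 1 sign on every array in that setting, against 6693 as deposited. The means of Star, Nr5a1 and Fdx1 changed sign, and those of the other 5 genes did not. Without array 3 all 8 means kept their sign. Within the first dye order alone (arrays 1 and 2), the mean was -0.71 for Cyp11a1 and -0.90 for Msln, with limma adjusted p of 0.404 for each. The second dye order holds 1 array, on which Cyp11a1 had -1.21 and Msln -1.26. In the fit with a dye term, the dye effect was 0.25 for Cyp11a1 and 0.18 for Msln (limma adjusted p = 0.603 and 0.807), and the age effect was -0.96 and -1.08 (adjusted p = 0.202 and 0.276).

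**Figure D3:**
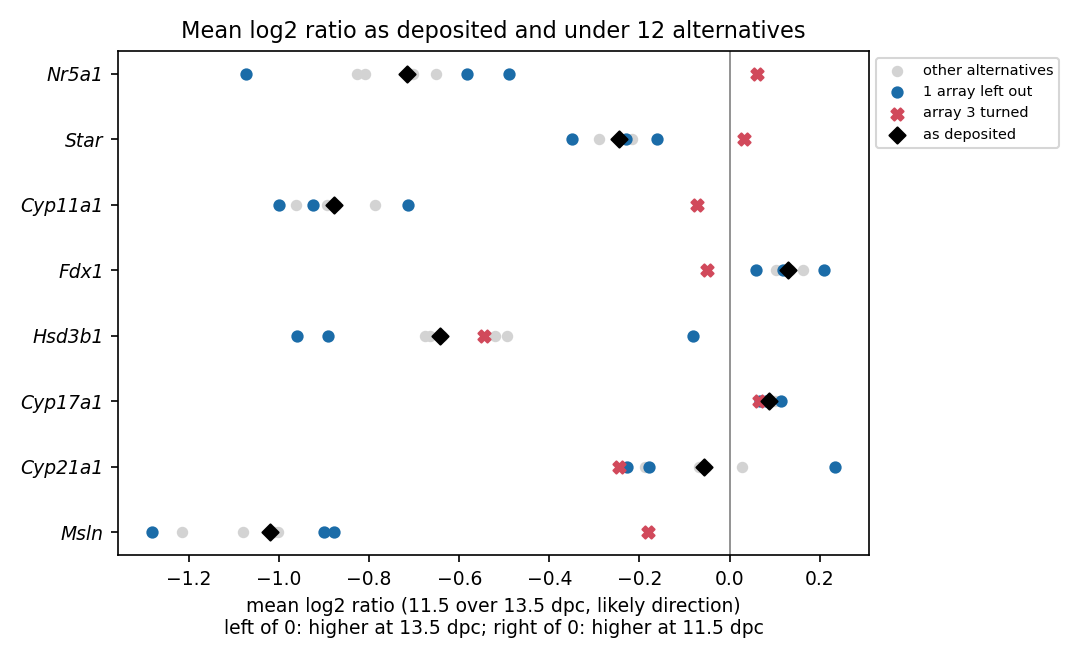
Mean log2 ratio (x axis) of each of the 8 genes as deposited (black diamonds), with array 3 turned (red crosses), with 1 array left out (blue) and under the other alternatives (grey). Cyp11a1, Hsd3b1 and Msln stay left of 0 in all of them, at -0.072, -0.54 and -0.18 with array 3 turned, and Cyp17a1 stays right of 0.

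The counts of each gene list below stand beside the shares of all rows called by the same rule. Other enzymes and carriers of the steroid pathway were measured for 26 of 38 listed genes. Adjusted over all rows 0 passed limma in either direction, and 1 was higher and 0 lower at 13.5 dpc at an unadjusted p under 0.05 (5.07% and 4.17% of all rows). Of the 26 genes 3 were negative and 5 positive on every array (18.5% and 16.7% of all rows), and the median of 0.0028 lay close to that of all rows. The gene with the smallest p was Cyp7b1, an oxysterol hydroxylase, with -1.22, -1.22 and -1.10 on arrays 1, 2 and 3; it was at least 2-fold higher at 13.5 dpc on each (mean -1.18 ± 0.07, SD, n = 3 arrays; limma adjusted p = 0.344). The other genes named by p were Hsd17b10 (0.45 ± 0.24) and Hsd17b7, an enzyme of cholesterol synthesis (0.56 ± 0.43), both lower at 13.5 dpc by mean. Cyp11b1, Cyp19a1 and Fdxr were not analysed here.

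Genes of steroid hormone signalling were measured for 22 of 25 and had a median of -0.13, with 4 negative and 3 positive on every array (18.5% and 16.7% of all rows). None passed limma over all rows (0), and 2 were higher and 1 lower at 13.5 dpc at an unadjusted p under 0.05 (5.07% and 4.17% of all rows). Prkaca, the catalytic subunit of protein kinase A through which ACTH acts, had -0.80 ± 0.29, Nr4a2 had -0.55 ± 0.10 and the cAMP-responsive factor gene Crem had 0.75 ± 0.21 (limma adjusted p = 0.472, 0.516 and 0.471). The ACTH receptor gene Mc2r had 0.13 ± 0.15 and its accessory protein gene Mrap 0.41 ± 0.27. Nr0b1, a nuclear receptor of the adrenal and gonad primordia that represses NR5A1 targets, had -0.95, -0.24 and -0.042 on arrays 1, 2 and 3, negative on each.

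Transcriptional and signalling regulators of the adrenogonadal primordium were measured for 16 of 18 and had a median of 0.013, with 4 negative and 3 positive on every array (18.5% and 16.7% of all rows). Over all rows 0 passed limma, and 1 was higher and 0 lower at 13.5 dpc at an unadjusted p under 0.05 (5.07% and 4.17% of all rows). That gene was Dlk1, which encodes a membrane protein of many embryonic tissues, with -1.60, -1.34 and -1.70, at least 2-fold higher at 13.5 dpc on each array (mean -1.55 ± 0.19, SD, n = 3 arrays; limma adjusted p = 0.326). Emx2 had -0.48 ± 0.25 and Nr2f2 had 0.40 ± 0.31. Gata4, a factor of the early gonad and of the heart, had a mean of -0.014 and Lhx9, a factor of the early gonad, one of -0.035, and both changed sign between arrays.

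Among gonad somatic cell genes (22 of 26 measured) the median was -0.23, with 7 negative and 2 positive on every array (18.5% and 16.7% of all rows). Over all rows 0 passed limma, and 2 were higher and 1 lower at 13.5 dpc at an unadjusted p under 0.05 (5.07% and 4.17% of all rows). The inhibin subunit gene Inha had -0.62 ± 0.18, Wnt4 had -1.02 ± 0.34 and Gadd45g had 0.56 ± 0.21; Wnt4 is also a gene of the forming nephron. The Sertoli cell hormone gene Amh had 0.034, -0.57 and 0.0043 on arrays 1, 2 and 3. Germ cell genes (15 of 22 measured) had a median of -0.060, with 5 negative and 0 positive on every array (18.5% and 16.7% of all rows). Over all rows 0 passed limma, and 4 were higher and 0 lower at 13.5 dpc at an unadjusted p under 0.05 (5.07% and 4.17% of all rows). Among them were Dazl (-0.57 ± 0.35), Stra8 (-0.68 ± 0.48) and Ifitm3 (-0.70 ± 0.40), the last of which is expressed far beyond germ cells. Pou5f1, a pluripotency factor of germ cells, had 0.38, 0.79 and -0.41.

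Other mesothelial genes (23 of 28 measured) had a median of -0.18, with 8 negative and 4 positive on every array (18.5% and 16.7% of all rows). Over all rows 0 passed limma, and 3 were higher and 2 lower at 13.5 dpc at an unadjusted p under 0.05 (5.07% and 4.17% of all rows). Crip1, a small LIM domain protein, had -1.18 ± 0.23, the lectin gene Itln1 had 0.66 ± 0.14 and the basonuclin gene Bnc1, a factor of mesothelium and other epithelia, had 1.72 ± 1.02, lower at 13.5 dpc by mean (limma adjusted p = 0.359, 0.472 and 0.503). The keratin genes Krt7, Krt8, Krt18 and Krt19 are shared with the ureteric epithelium. Krt7 had the lowest mean of the list, -1.83 ± 1.47, with -1.37, -3.48 and -0.65 on arrays 1, 2 and 3, and Krt8, Krt18 and Krt19 had means of -0.63, -0.20 and -0.18. Wt1 had -0.31 ± 0.20, and it is expressed by nephron progenitors and podocytes as well as by mesothelium. The mesothelial list thus held genes of both directions beside Msln. The uroplakin genes (4 of 4 measured), whose proteins form plaques on urothelium, had a median of 0.39. Of these, 0 were negative and 0 positive on every array (18.5% and 16.7% of all rows). Past limma over all rows there were 0. At an unadjusted limma p under 0.05, 0 were higher and 0 lower at 13.5 dpc (5.07% and 4.17% of all rows). Upk3a had 0.80, 0.94 and -0.22, Upk1a a mean of 0.45 ± 0.70 and Upk2 one of 0.33 ± 0.38.

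Genes of chromaffin cells, which form the adrenal medulla, and of sympathetic neurons (13 of 18 measured) had a median of -0.042, with 4 negative and 0 positive on every array (18.5% and 16.7% of all rows). Over all rows 0 passed limma, and 2 were higher and 0 lower at 13.5 dpc at an unadjusted p under 0.05 (5.07% and 4.17% of all rows). Tyrosine hydroxylase, Th, had -1.29, -1.25 and -0.57, and Hand2 had -1.29, -0.81 and -1.18 (limma adjusted p = 0.450 and 0.368). Chgb, also named by p, had -0.36, -0.16 and -1.15, and Phox2a (mean -0.30) was negative on each array too. Chga had a mean of -0.64, with -2.03, 0.13 and -0.025 on arrays 1, 2 and 3. Others lay near 0 or were positive by mean, such as Insm1 (-0.042), Scg2 (0.11), Ddc (0.24) and Pnmt (1.21). The part of such cells in the ratios of the 8 genes was not tested. Kidney genes (16 of 18 measured) had a median of -0.22, with 8 negative and 2 positive on every array (18.5% and 16.7% of all rows). Over all rows 0 passed limma, and 3 were higher and 0 lower at 13.5 dpc at an unadjusted p under 0.05 (5.07% and 4.17% of all rows). The 3 with the smallest p were Cdh16 (-1.62 ± 0.12), Pax8 (-0.79 ± 0.13) and Cited1 (-0.85 ± 0.37). Others lay nearer 0 or were positive, such as Six2 (-0.17), Ret (0.30) and Osr1 (0.42).

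**Figure D4:**
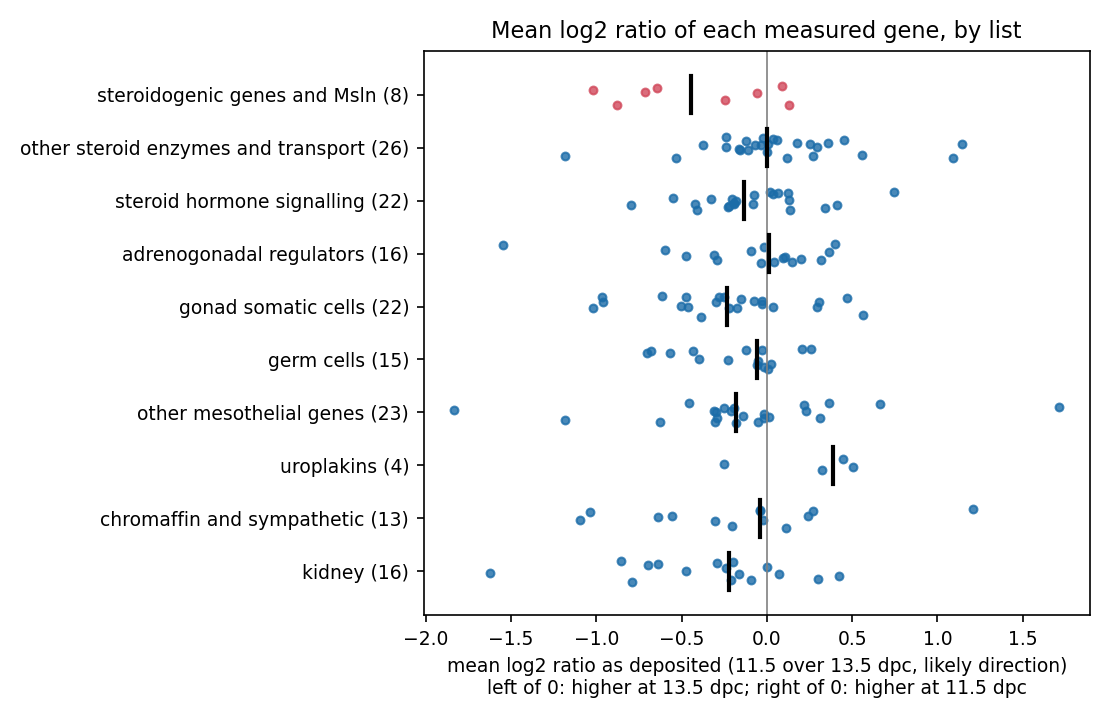
Mean log2 ratio (11.5 over 13.5 dpc, likely direction; x axis) of every measured gene in the gene lists, 1 point per gene, with the number of genes in brackets and the median of each list as a black bar; vertical scatter has no meaning. The 8 genes have a median of -0.45, and every list spans genes on both sides of 0.

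The genes with the pattern closest to Cyp11a1, by Euclidean distance over the log2 ratios of 3 arrays among all named rows, were Ehd1 (distance 0.083), 2610528J11Rik (0.087) and Wdr83os (0.10). Ehd1 had -0.57, -0.79 and -1.16 on arrays 1, 2 and 3. The closest to Msln were Lgals9 (distance 0.15), Ptgfr (0.17) and Trpv4 (0.25), and Lgals9 had -1.33, -0.64 and -1.28. With 3 arrays many rows lie near any pattern, and the distances are a description.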

How the data were processed

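The deposited table holds log2 ratios of the 2 channels of each array. Per the labels, images were quantified with ImaGene 5.5, and the labels carry 2 accounts of normalisation by the authors, print-tip loess with a step between arrays in R, and a Lowess fit with 20% of the data that raised control values under 10 to 10. The labels do not say which of them gave the deposited log2 values. Without spot intensities, which were not used here, no filter on signal could be set. The log base was found from the values: 2 to the power of each value between -3 and 2 was a whole multiple of 0.001 (within 0.02 of that step) for 100% of them.

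Of 22702 features, 883 control features were left out. Features with values on all 3 arrays (20386) were averaged by symbol, which gave 19015 rows, of which 14433 were named; symbols were checked through Entrez identifiers against the GRCm38.p6 table, and 0 were renamed. Each mean was tested against 0, two-sided, with lmFit and eBayes of limma 3.58.1 under R 4.3.3 and Benjamini-Hochberg adjustment over all rows. The procedure was also run on simulated data, in which the values of each array were shuffled and known shifts added. Shuffling removes the likeness between arrays, so that run does not show what size of change could be found here. Values within 1e-06 of 0 were given no sign. Separate RNA extracts are not stated for the arrays, so limma's p reflects the spread between these samples alone, possibly technical, and the precision is limited by the number of arrays. The 9 genes and the lists were chosen with earlier results of these data known, and some genes stand in more than 1 list. Genes named in the text are the 8 measured genes, the 3 of each list with the smallest limma p, any at least 2-fold on every array and the 3 closest in pattern to Cyp11a1 and to Msln; others (Mc2r, Mrap, Nr0b1, Gata4, Lhx9, Amh, Pou5f1, Wt1, Hsd3b2, Hsd3b3, the keratins, Insm1, Scg2, Ddc, Pnmt, Six2, Ret and Osr1 among them) were chosen after their values were seen. Alternatives were centring, scaling and quantile normalisation of the arrays, leaving out each array, turning array 3, a dye term, array weights, a robust variance, single features and values on at least 2 arrays.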

Additional observations from a re-analysis of the deposited data

How the results depend on the processing

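Of 96 means recomputed for the 8 genes under 12 alternatives, 91 kept their sign and 5 did not, and none passed limma's adjusted threshold (smallest adjusted p 0.202, for Cyp11a1 with a dye term). Part of the 91 was fixed in advance. A robust variance does not alter a mean, and each gene had 1 feature with values on all 3 arrays. The means with a robust variance, single features and values on at least 2 arrays therefore equalled those as deposited. With array 3 turned, Star had 0.032, Nr5a1 0.062 and Fdx1 -0.050, and 42 rows were at least 2-fold on every array against 130. The count of genes with 1 sign on every array was 0 against 5 as deposited. That loss is fixed in advance, since turning an array breaks any shared sign. Of all rows, 5542 had 1 sign in that setting. The count also depends on where 0 lies. It was 6 of the 8 genes after centring on the median and after quantile normalisation, where 6809 and 6828 rows had 1 sign. Cyp21a1 ran from -0.23 to 0.23 with 1 array left out (the positive value without array 1) and had 0.028 with a dye term. With 1 array left out, which leaves 2 to satisfy the count, 266 to 341 rows were at least 2-fold and 9719 to 12246 rows had 1 sign, against 6693 with all arrays; the genes with 1 sign numbered 5 to 7. At 1.5-fold the count was 479 and at 3-fold 28. Limma passed 0 rows under every alternative, with 736 to 2669 rows at an unadjusted p under 0.05 and 1757 as deposited. Signal over background could not be assessed from ratios. Each log2 ratio already pairs both ages within its array, and the arrays form 1 group, so no replicate block could be added.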

Other observations

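Some genes of the lists had extreme ratios on 1 array, or opposite ones on different arrays, which their means hide. Cyp11b2, the aldosterone synthase gene, had log2 ratios of 0.19, -2.37 and 5.47 on arrays 1, 2 and 3, extreme in opposite directions on arrays 2 and 3. Pnmt, which makes adrenaline in chromaffin cells, had 0.52, -0.51 and 3.63. Akr1c14 had -0.28, 0.057 and 3.66. On array 3 these 3 genes were far lower at 13.5 dpc than at 11.5 dpc, and arrays 1 and 2 did not show it. On array 2, Fgf9 had -3.18 and Inhba had -2.74, with values between -0.17 and 0.24 on the other arrays, as Hsd3b1 had its low ratio there. Upk3bl, a gene related to Upk3b, had -0.34, 1.67 and -1.34 and so no single direction. These genes were chosen after their values were seen.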
